A study of Mus musculus with 62 samples.

Results

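*Prox1*, *C1ql2*, *C1ql3*, *Calb1*, *Dsp* and *Tdo2* are 6 genes used as markers of dentate granule cells, the principal neurons of the dentate gyrus, and each was found by its symbol as a single entry among the 56415 genes counted. Poly(A) RNA had been sequenced from 62 tissue samples of 16 male C57BL/6J mice, 8 to 10 weeks of age, taken from the hippocampus, split into its dorsal (dHPC) and ventral (vHPC) parts, the striatum, split likewise (DS and VS), and the cortex (CTX). Mice had received 2 g/kg ethanol or the same volume of saline by intraperitoneal injection, once (acute) or daily for 10 d (chronic), and tissue was taken 4 h after the last injection. The saline mice of each paradigm therefore share the injections, and there were 3 or 4 mice per group, 1 library per mouse and region, in 20 groups. The hippocampal libraries, on which the account rests, were 3 acute saline, 4 acute ethanol, 3 chronic saline and 3 chronic ethanol libraries in dHPC, and 3 of each in vHPC. Most mice gave tissue to more than 1 region, so regions of the same mouse are not separate animals.

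The genes were chosen by symbol as markers with earlier results of these libraries in view, the measured values in question being those of acute ethanol and acute saline vHPC, where a list of granule neuron genes had stood higher with ethanol. That contrast is described below without a test, and the contrasts that reuse its libraries are described in the same way. Total counts were 44391219 to 71164766 per library in dHPC and 11421520 to 16574721 in vHPC. Among genes at 1 to 19 counts, 88.4% to 90.8% of the values in a vHPC library and 64.3% to 70.4% in a dHPC library were even, so a read pair often added 2 counts and the number of fragments behind a value is lower than its count. The cortex and dHPC libraries were made with a kit that does not keep strand and sequenced on another instrument than the vHPC, DS and VS libraries, so region and batch cannot be told apart between those sets.

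Granule cells receive the perforant path from the entorhinal cortex and send mossy fibers to mossy cells and to CA3 pyramidal cells. Their number and packing differ along the long axis of the hippocampus, and new granule cells are added throughout life. *Prox1* encodes the homeodomain transcription factor that sets and keeps granule cell identity. *C1ql2* and *C1ql3* encode secreted C1q-like proteins that mossy fibers release, where they bridge neurexin 3 and kainate receptors, and C1ql3 also binds the adhesion receptor encoded by *Adgrb3*. *Calb1* encodes calbindin, a calcium buffer of mature granule cells that is also plentiful in striatal projection neurons and some cortical neurons. *Dsp* encodes desmoplakin, which ties junctions to intermediate filaments in epithelia, and *Tdo2* encodes tryptophan 2,3-dioxygenase, which starts the kynurenine pathway. In bulk tissue, fewer cells of a type and less RNA per cell cannot be told apart.

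On GRCm39 the genes lie on 5 chromosomes, *C1ql2* on chromosome 1 from 120268312 to 120270903, *Prox1* on chromosome 1 from 189850232 to 189902911, *C1ql3* on chromosome 2 from 13008268 to 13016617, *Tdo2* on chromosome 3 from 81864397 to 81883509, *Calb1* on chromosome 4 from 15881264 to 15908064 and *Dsp* on chromosome 13 from 38335270 to 38382553. *C1ql2*, *Calb1* and *Dsp* are on the plus strand and the others on the minus strand. Exons of *Prox1*, *C1ql3*, *Tdo2* and *Dsp* overlap exons of genes on the opposite strand (*Prox1os*; *Gm37811*, *Gm37824* and *Pter*; *Ctso*; *Gm10129*), so in the unstranded dHPC and cortex libraries reads of those partners can be counted for them.

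Because the members are set beside each other library by library, the sequence before their start sites is shown. The RefSeq table used here holds a window around the start for 5 of the 6 genes, of which all but *Tdo2* hold the E-box letters CANNTG, which basic helix-loop-helix factors read and which are the same on both strands. In the stretches below, written 5′ to 3′ on the gene's strand from RefSeq and placed on GRCm39, capitals mark CANNTG. The *C1ql2* and *Prox1* stretches are the 250 bases before the start (chr1:120268062-120268311 and chr1:189903025-189903274), and the *C1ql3* stretch is 30 bases around its motif (chr2:13015888-13015917), inside the longer gene model used for counting.

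C1ql2: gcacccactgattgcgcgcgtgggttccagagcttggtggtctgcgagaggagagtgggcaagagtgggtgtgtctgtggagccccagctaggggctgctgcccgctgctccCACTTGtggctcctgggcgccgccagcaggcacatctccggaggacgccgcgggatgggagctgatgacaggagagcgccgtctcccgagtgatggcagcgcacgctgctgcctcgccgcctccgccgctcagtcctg

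Prox1: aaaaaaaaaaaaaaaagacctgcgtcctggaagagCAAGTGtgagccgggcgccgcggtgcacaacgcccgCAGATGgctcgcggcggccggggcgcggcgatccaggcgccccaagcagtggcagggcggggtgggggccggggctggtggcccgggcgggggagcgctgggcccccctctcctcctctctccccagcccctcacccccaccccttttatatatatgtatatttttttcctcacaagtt

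C1ql3: ttcagttcaagtCACTTGgcgccccagctc

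The motif began 138 bases before the start in *C1ql2*, 215 and 179 bases before it in *Prox1*, and 230 bases before it in *C1ql3*. Each RefSeq window holds 300 bases, 250 before the start and 50 from it on. CACTTG, or CAAGTG on the other strand, was in 3 of the 6 windows of these genes (*Prox1* has 2 windows) and in 13.6% of all 32851 RefSeq windows of that length, and any CANNTG was in 72.3% of them. CACTTG was singled out after the sequences were seen, and a match is letters only.

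Of the 6 genes, 5 were higher in both hippocampal regions than in the striatum, as a granule cell marker would be, and *Calb1* was not. Levels are given as CPM, counts scaled to a common library total with the trimmed mean of M-values (TMM), and levels of different genes are compared only per kilobase of exon. *Prox1* had median levels of 131 CPM in dHPC (range 79.8 to 187, n = 13) and 128 in vHPC (39.4 to 262, n = 12), against 21.3 in DS (n = 13), 14.02 in VS (n = 12) and 11.7 in CTX (n = 12). *C1ql2* had medians of 80.5 in dHPC and 65.6 in vHPC and of 1.04, 1.01 and 0.554 in DS, VS and CTX. For both genes every hippocampal library lay above every library of the other regions. For *Prox1* the gap was narrow, the lowest vHPC library being at 39.4 CPM and the highest DS library at 39.0. The order of the lower regions did not separate beyond their ranges.

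*Dsp* had medians of 100.1 CPM in dHPC and 94.6 in vHPC, and of 0.998 in DS, 0.554 in VS and 0.455 in CTX. *Tdo2* was low throughout, with medians of 7.54 in vHPC, 7.01 in dHPC, 0.379 in CTX, 0.341 in VS and 0.322 in DS. *Dsp* stood at 3 counts or fewer in 2 DS and 2 VS libraries and *Tdo2* in 4 DS and 2 VS libraries, so levels there are near the limit of what the depth can show. For both genes the hippocampal ranges again lay wholly above the others.

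*C1ql3* differed from its paralog *C1ql2* in that the cortex also held it, with medians of 105 CPM in vHPC, 99.5 in dHPC and 80.0 in CTX, whose ranges overlapped, and of 9.17 in DS and 6.68 in VS, which lay wholly below CTX. *Calb1* had its highest medians in VS and DS (both 201 CPM), followed by CTX at 108, vHPC at 101 and dHPC at 87.1, and every neighboring pair in that order overlapped. Per kilobase, the dHPC medians were 40.3 CPM per kb for *C1ql2*, 39.2 for *C1ql3*, 17.98 for *Calb1*, 15.6 for *Prox1*, 10.4 for *Dsp* and 1.81 for *Tdo2*. The vHPC order differed only in its first places, with 41.4 CPM per kb for *C1ql3* and 32.8 for *C1ql2*.

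**Figure D1:**
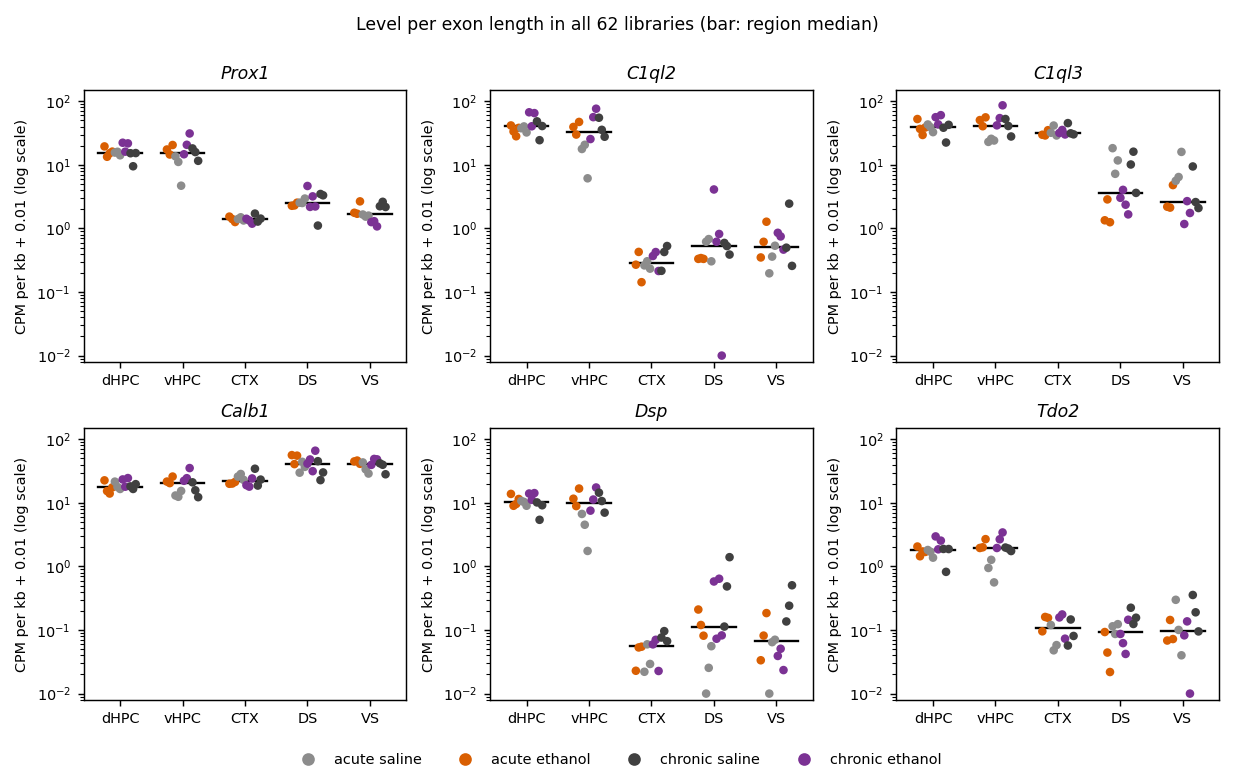
Level of each gene per exon length in all 62 libraries, on a log axis after adding 0.01 CPM per kb; points are libraries colored by treatment group and bars are region medians. *Prox1*, *C1ql2*, *Dsp* and *Tdo2* sit higher in dHPC and vHPC than in CTX, DS and VS, *C1ql3* in CTX overlaps the hippocampal range with a lower median, and *Calb1* is highest in the striatum.

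Some hippocampal libraries stood apart in genes of neighboring tissue. A list of 6 striatal projection neuron genes (most abundant gene *Ppp1r1b*) summed to 1565 CPM in chronic saline dHPC mouse 5, 6.92 times the dHPC median, and to 631 and 889.7 CPM in acute ethanol mouse 4 and chronic ethanol mouse 5 of vHPC, 4.65 and 6.55 times the vHPC median. A list of 6 thalamic genes (most abundant gene *Prkcd*) summed to 779.9 CPM in acute saline vHPC mouse 2, 7.18 times the median. Choroid plexus genes (8, most abundant *Ttr*) summed to 2356 CPM in that library and to 26.4 CPM, with 2 of the 8 genes at 0, in chronic saline vHPC mouse 2. Of these libraries, the dHPC one also had the lowest level of 5 of the 6 granule cell genes in its region, all but *Calb1*, and the members' and other granule cell genes' changes in chronic dHPC are given with and without it.

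**Figure D2:**
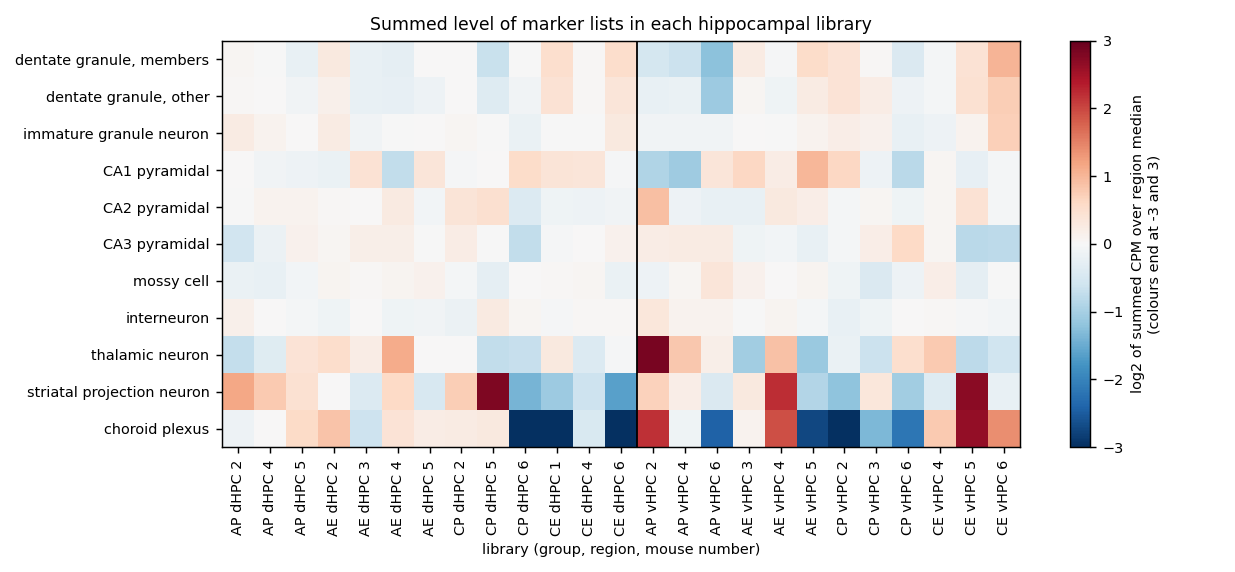
Summed CPM of 11 marker gene lists in each of the 25 hippocampal libraries, as log2 of the ratio to the region's median; columns are libraries (AP and AE, acute saline and ethanol; CP and CE, chronic saline and ethanol; then the mouse number) and the vertical line divides dHPC from vHPC. The granule cell rows are lowest in CP dHPC 5, which is 6.92 times the median in striatal genes, and in AP vHPC 6, and highest in CE vHPC 6.

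In dHPC, a single ethanol injection left the granule cell genes at the level of the saline mice within the spread between mice. *Prox1* was at 131, 135 and 119 CPM in the 3 acute saline mice and at 164, 112.6, 128 and 136 in the 4 acute ethanol mice. *C1ql2* was at 75.4, 80.5 and 64.8 CPM with saline and at 83.4, 67.0, 56.4 and 76.4 with ethanol. The groups overlapped for both genes, with the highest and the lowest values on the ethanol side, and they overlapped for the other 4 genes as well. Over all genes tested, 8.16% had groups that did not overlap.

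The log2 fold changes (ethanol over saline, edgeR quasi-likelihood test) were 0.07 ± 0.11 (SE) for *Prox1*, -0.06 ± 0.12 for *C1ql2*, 0.03 ± 0.16 for *C1ql3*, -0.11 ± 0.15 for *Calb1*, 0.12 ± 0.13 for *Dsp* and 0.08 ± 0.14 for *Tdo2*. None passed a false discovery rate (FDR) of 0.1, with edgeR FDRs of 0.881 to 0.982, against 0.042% of all 26215 genes tested. No member had an unadjusted edgeR p under 0.05, against 3.67% of genes that had one and were higher and 4.2% that were lower, and DESeq2 called no member among the 1.07% of genes it called. Their median change was 0.05, beside a median of 0.00 over all genes. It was -0.09 without ethanol mouse 2, when all 6 members were lower and *Calb1* had an unadjusted edgeR p under 0.05, and -0.06 without saline mouse 5.

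Of 13 other granule cell genes, 4 were higher and 9 lower with acute ethanol in dHPC, with a median log2 fold change of -0.06 and none past the FDR of either tool. *Plk5*, a polo-like kinase of neurons, was at -0.32 ± 0.14 (edgeR FDR 0.620), with groups that overlapped. Among genes of the young granule neuron, *Dcx*, which encodes the microtubule protein doublecortin, was at -0.27 ± 0.08 with groups that did not overlap (edgeR FDR 0.455). Of the 5 genes of that list 3 were lower and 2 higher, with a median of -0.24, *Sox11* and *Neurod1* being at 0.00 ± 0.13 and 0.01 ± 0.13.

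After 10 daily injections, all 6 genes were higher with ethanol than with saline in dHPC. None passed the edgeR FDR, and DESeq2 called *Prox1*. *Prox1* was at 128, 79.8 and 129 CPM in the chronic saline mice and at 187, 135 and 183 in the chronic ethanol mice. *C1ql3* was at 97.4, 57.0 and 108 CPM with saline and at 143, 110.0 and 154 with ethanol. *Dsp* was at 98.2, 52.2 and 88.5 CPM with saline and at 136, 108 and 138 with ethanol. For these genes every ethanol library lay above every saline library, although the lowest ethanol mouse, mouse 4, came within 1 SD of the highest saline mouse, and mouse 5 was the lowest saline library each time.

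*C1ql2* was at 96.8, 48.9 and 81.6 CPM with saline and at 134, 81.0 and 130.5 with ethanol. *Calb1* was at 88.1, 80.3 and 95.5 CPM with saline and at 113.3, 87.1 and 119 with ethanol. *Tdo2* was at 7.28, 3.15 and 7.26 CPM with saline and at 11.5, 7.18 and 9.85 with ethanol. Here ethanol mouse 4 fell among the saline mice, so the groups overlapped.

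The log2 fold changes were 0.58 ± 0.19 for *Prox1*, 0.60 ± 0.25 for *C1ql2*, 0.62 ± 0.22 for *C1ql3*, 0.27 ± 0.12 for *Calb1*, 0.66 ± 0.21 for *Dsp* and 0.68 ± 0.30 for *Tdo2*. EdgeR FDRs were 0.566 to 0.611 and 0% of 25958 genes passed, so with these mice the test called no gene at all. By unadjusted edgeR p, 5 of the 6 were under 0.05 and higher, against 3.47% of genes tested, and *Tdo2* was the exception. Groups that did not overlap, with ethanol higher, were seen in 3 of 6 members and in 6.8% of all genes. DESeq2 called *Prox1* alone (FDR 0.0697), among 0.428% of genes called higher, and the FDR of *Prox1* reached 0.977 over the alternatives.

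The members' median log2 fold change was 0.61, and it was 0.39 without chronic saline mouse 5, whose striatal list stood 6.92 times above the region's median. Without that library all 6 genes were still higher with ethanol and 3 had an unadjusted edgeR p under 0.05. Without ethanol mouse 1 or mouse 6, in either case, only 1 did. The striatal list had a median log2 fold change of -3.04 in the same comparison, and -1.37 without saline mouse 5, and the choroid plexus list -1.48, and -1.02 without it, with summed choroid plexus levels of 40.2 CPM in saline mouse 6, 282.5 in ethanol mouse 1 and 32.3 in ethanol mouse 6 beside a dHPC median of 2243. Their part in the result was not tested.

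**Figure D3:**
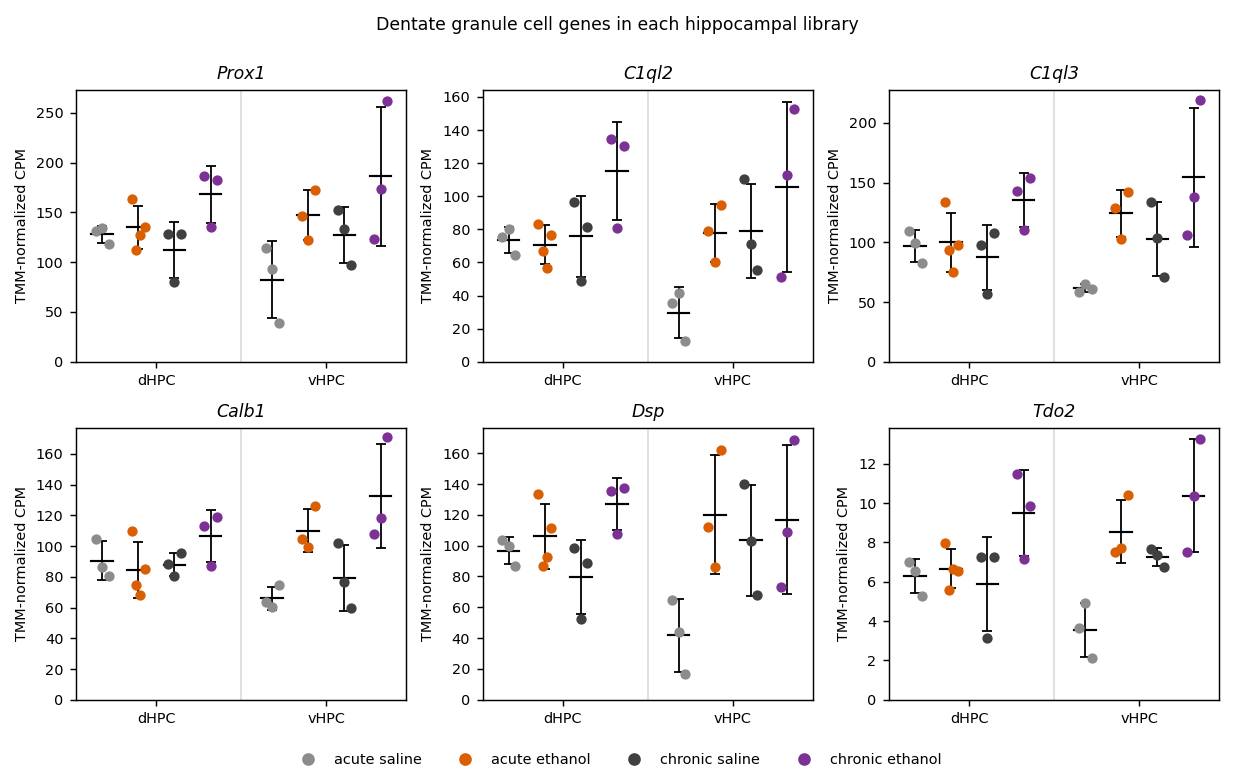
TMM-normalized CPM of each gene in the 25 hippocampal libraries; points are mice, bars are group means and error bars 1 SD (n = 3, or 4 for acute ethanol in dHPC). In dHPC the chronic ethanol group has the highest mean for all 6 genes; in vHPC the acute saline group has the lowest.

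The 13 other granule cell genes were likewise higher with chronic ethanol in dHPC, 13 of 13, with a median log2 fold change of 0.41. An unadjusted edgeR p under 0.05 was seen in 10, against 3.47% of all genes tested that had one and were higher. None passed the edgeR FDR and DESeq2 called 6, against 0.428% of all genes called higher. *Lct*, which encodes lactase and marks dorsal granule cells, was at 0.73 ± 0.15, *Npnt*, which encodes the matrix protein nephronectin, at 0.64 ± 0.19, and *Synpr*, which encodes the mossy fiber vesicle protein synaptoporin, at 0.41 ± 0.11. *Glis3* and *Sema5a*, a zinc finger factor and a semaphorin, were at 0.37 ± 0.09 and 0.46 ± 0.15. These 5 genes had groups that did not overlap, against 6.8% of all genes with ethanol higher. Without chronic saline mouse 5, 12 of the 13 were higher, all but *Trhr* at -0.17 ± 0.46, with a median of 0.30. The count at an unadjusted edgeR p under 0.05 was then 6 in place of 10.

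Lists of other hippocampal cells, which are not tested against the granule cell genes, are given beside them. Of 5 CA1 pyramidal genes 3 were higher, with a median of 0.03, and of 5 CA2 genes 2 were higher, with a median of -0.01. Without chronic saline mouse 5, 1 CA2 gene was higher and 4 lower, with a median of -0.11. The 6 interneuron genes had a median of 0.03 and the 5 genes of immature granule neurons -0.07, among which *Neurod1*, a factor of granule neuron maturation, was at 0.60 ± 0.20 and *Dcx* at -0.25 ± 0.14. Of the 4 CA3 genes 3 were higher (median 0.25, and 0.18 without chronic saline mouse 5), the exception being *Coch* at -1.63 ± 0.67, which was at -0.38 ± 0.37 without that mouse. Of the 4 mossy cell genes 3 were higher (median 0.25), with *Csf2rb2* at 1.04 ± 0.31, *Calb2* at 0.48 ± 0.29 and *Calcrl* at 0.01 ± 0.15. Without that mouse 2 of the mossy cell genes were higher and 2 lower (median 0.36).

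The change with ethanol was compared between the paradigms in dHPC by an interaction term (chronic minus acute). It was positive for all 6 genes, from 0.37 ± 0.22 for *Calb1* to 0.65 ± 0.30 for *C1ql2*, with a median of 0.56, and 0.32 without chronic saline mouse 5. No gene of the 26850 tested passed by edgeR (0%), the members' edgeR FDR was 0.969, and *Prox1* and *C1ql2* had an unadjusted edgeR p under 0.05, 2 of 6 against 1.84% of genes that were higher. That count ran from 0, without chronic saline mouse 5 among others, to 6, without chronic ethanol mouse 4 or with no filter on low counts. DESeq2 called 2 genes (0.00745%), neither a member. A difference between the paradigms in the members was thus not detectable by the FDR.

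In vHPC, the contrast that led to the choice of the genes, all 6 were higher with acute ethanol than with acute saline. *C1ql2* was at 35.6, 41.4 and 12.3 CPM in the acute saline mice and at 79.0, 60.0 and 94.8 in the acute ethanol mice. *C1ql3* was at 58.3, 65.2 and 61.3 CPM with saline and at 128, 103 and 142 with ethanol. *Prox1* was at 114, 93.4 and 39.4 CPM with saline and at 146, 122 and 172 with ethanol. Saline mouse 6 held the lowest *C1ql2* and *Prox1* values of all 25 hippocampal libraries, while its *C1ql3* was between the other 2 saline mice.

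*Dsp* was at 64.6, 43.7 and 16.8 CPM with saline and at 112, 86.0 and 162 with ethanol. *Calb1* was at 63.3, 60.4 and 74.7 CPM with saline and at 105, 99.2 and 126 with ethanol. *Tdo2* was at 3.64, 4.90 and 2.14 CPM with saline and at 7.54, 7.73 and 10.4 with ethanol. No groups overlapped in any of the 6, as the choice of genes would have it, and 9.2% of the 19916 genes tested separated with ethanol higher.

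As a description, the log2 fold changes were 0.83 ± 0.32 for *Prox1*, 1.38 ± 0.37 for *C1ql2*, 1.00 ± 0.12 for *C1ql3*, 0.73 ± 0.12 for *Calb1*, 1.51 ± 0.41 for *Dsp* and 1.25 ± 0.30 for *Tdo2*. The median was 1.13, 0.99 without saline mouse 6 and 1.29 without saline mouse 4. Beside the members, 12 of the 13 other granule cell genes were higher, with a median of 0.44, and the exception was *Trhr*, the receptor for thyrotropin-releasing hormone and a mark of ventral granule cells, at -0.55 ± 0.65. *Lct* was at 1.27 ± 0.45.

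In the same vHPC libraries the thalamic list was lower with ethanol (6 of 6 genes, median -1.92) and the 5 CA1 genes higher (median 1.00), led by *Wfs1* at 1.09 ± 0.21. The 4 CA3 genes were all lower, with a median of -0.49. Their part in the difference of the granule cell genes was not tested.

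With chronic ethanol in vHPC, the mean of each gene was higher than with saline, with a wide spread between mice. No member passed the edgeR FDR, and DESeq2 called *Calb1*. *Prox1* was at 152, 133 and 97.2 CPM in the chronic saline mice and at 123, 174 and 262 in the chronic ethanol mice. *C1ql2* was at 110.3, 71.2 and 55.4 CPM with saline and at 50.9, 112.7 and 153 with ethanol. *C1ql3* was at 134, 104 and 70.9 CPM with saline and at 106, 138 and 219 with ethanol. Ethanol mouse 6 was the highest of all hippocampal libraries in these genes, ethanol mouse 4 lay within the saline range or below it, and the groups overlapped.

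*Calb1* was at 102, 76.4 and 59.6 CPM with saline and at 108, 118 and 171 with ethanol, the only member whose groups did not overlap, against 7.48% of 19814 genes that separated with ethanol higher. *Dsp* was at 139.8, 103 and 67.8 CPM with saline and at 72.9, 109 and 169 with ethanol. *Tdo2* was at 7.66, 7.38 and 6.74 CPM with saline and at 7.54, 10.4 and 13.3 with ethanol. For *Dsp* only ethanol mouse 6 lay above all saline mice, and for *Tdo2* ethanol mouse 4 fell among them.

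The log2 fold changes were 0.54 ± 0.24 for *Prox1*, 0.41 ± 0.35 for *C1ql2*, 0.58 ± 0.27 for *C1ql3*, 0.73 ± 0.21 for *Calb1*, 0.16 ± 0.30 for *Dsp* and 0.50 ± 0.22 for *Tdo2*. The edgeR FDRs were 0.362 to 0.892, beside 0.0555% of genes called. *Calb1* and *Tdo2* had an unadjusted edgeR p under 0.05 and were higher, 2 of 6 against 5.11% of genes. That count was 1 without ethanol mouse 6, saline mouse 3 or saline mouse 6, and 5 without ethanol mouse 4 or with no filter on low counts. DESeq2 called *Calb1* alone (FDR 0.05005), among 0.702% of genes called higher, and the FDR of *Calb1* ran up to 0.877 over the alternatives.

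The median was 0.52, and it was 0.22 without ethanol mouse 6, when *Dsp* was at -0.20, and 0.75 without ethanol mouse 4. The choroid plexus list was higher with chronic ethanol in all 8 genes, with a median log2 fold change of 4.14 and 5 genes past the edgeR FDR. Without saline mouse 2 its median was 3.64 and 0 genes passed. The striatal list had a median of 1.94, which turned to -0.08 without ethanol mouse 5, the library with the most striatal RNA. Summed choroid plexus levels were 26.4, 203 and 115.5 CPM with saline and 888, 3199 and 1363 with ethanol. Whether tissue boundaries that differed between these libraries bear on the granule cell genes was not tested.

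Around the members in vHPC, 11 of the 13 other granule cell genes were higher with chronic ethanol, with a median of 0.29, none past the edgeR FDR and 1, *Trhr*, called by DESeq2. *Trhr* was at 2.16 ± 0.51 (edgeR FDR 0.273, DESeq2 FDR 0.0237). Its level went from 0.658 ± 0.473 CPM (SD, n = 3) with saline to 3.04 ± 0.579 with ethanol. The groups did not overlap, as in the 7.48% of genes that separated with ethanol higher. Its chronic saline libraries ranged from 0.178 to 1.12 CPM, near the limit of what the depth can show. Acute saline and acute ethanol vHPC held 2.56 ± 2.00 and 1.75 ± 0.20 CPM of it. *Lct* was at -0.11 ± 0.32, from 55.2 ± 19.4 to 51.6 ± 24.1 CPM. *Calb2*, which encodes calretinin and marks mossy cells of the mouse hilus, was at 1.59 ± 0.35 (edgeR FDR 0.248), while of the 4 mossy cell genes 2 were higher and 2 lower (median 0.37), with *Ociad2* at -0.22 ± 0.22 and *Calcrl* at -0.02 ± 0.23. The mossy cell median was 0.16 without saline mouse 2 and 0.18 without ethanol mouse 5. Of the 4 CA3 genes 3 were lower (median -0.79), with *Bok* at -0.93 ± 0.31 and *Iyd* at -1.18 ± 0.36, and *Coch* was at 1.62 ± 0.51 (edgeR FDR 0.406, DESeq2 FDR 0.0868).

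**Figure D4:**
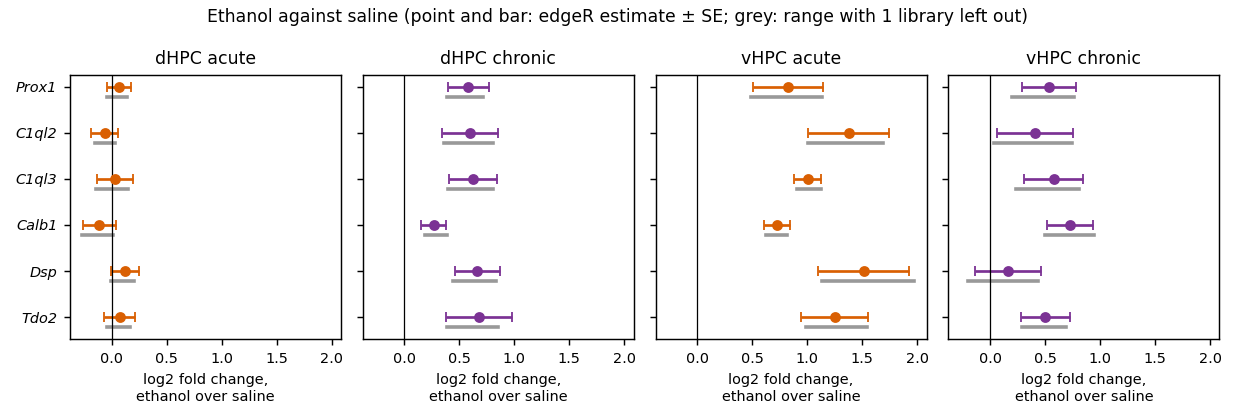
Log2 fold change of each gene with ethanol against saline in the 4 hippocampal comparisons; points and bars are edgeR estimates ± SE and grey lines the range when 1 library is left out. Estimates lie near 0 in dHPC acute, between 0.27 and 0.68 in dHPC chronic, between 0.73 and 1.51 in vHPC acute and between 0.16 and 0.73 in vHPC chronic; the vHPC acute panel is the contrast that led to the choice of the genes.

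The saline groups show where the vHPC contrast sits among the other libraries. The members summed to 340 (mouse 2), 309 (mouse 4) and 207 (mouse 6) CPM in acute saline vHPC and to 646, 495 and 358 in chronic saline vHPC, while the acute ethanol vHPC libraries summed to 579, 478 and 708. The acute saline libraries were thus the 3 lowest of the 12. Between the saline groups (chronic minus acute) the members' median log2 difference was 0.87 in vHPC, led by *C1ql2* at 1.40 ± 0.39 and *Dsp* at 1.303 ± 0.41, and -0.12 in dHPC, where the groups summed to 531, 508 and 439 and to 516, 321 and 509.8. In dHPC 1 member was higher in the chronic saline group, and without chronic saline mouse 5 it was 4, with a median of 0.05. The thalamic list summed to 123 to 780 CPM in acute saline vHPC and to 69.5 to 154 in chronic saline vHPC. Choroid plexus sums were 96.5 to 2356 CPM (median 473) and 26.4 to 203 (median 115). The part of such tissue in the vHPC saline difference was not tested. The vHPC difference and the vHPC interaction term (median -0.59) reuse the acute saline libraries and are descriptions, and in dHPC no member passed the edgeR FDR (0.00382% of 26167 genes did), with edgeR FDRs of 0.758 to 0.968.

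For the 9 mice that gave both hippocampal regions, the members' mean log2 level was set against the region's mean and is given as a fold. Chronic ethanol mouse 6 was high in both regions (1.43 times in dHPC and 2.06 times in vHPC), and acute saline mice 2 and 4 were at 1.04 and 0.988 in dHPC and at 0.672 and 0.659 in vHPC. Acute ethanol mice 3, 4 and 5 were at 0.856, 0.838 and 0.992 in dHPC and at 1.21, 1.03 and 1.503 in vHPC. Chronic ethanol mouse 4 was at 1.03 and 0.992, and chronic saline mice 2 and 6 were at 1.02 and 1.01 in dHPC and at 1.34 and 0.796 in vHPC. Neither the low vHPC values of acute saline mice 2 and 4 nor the higher ones of the acute ethanol mice were matched in their dHPC. Those acute vHPC values led to the choice of the genes, so this is a description and no comparison of the regions.

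The 6 genes were set against their common profile across the 25 hippocampal libraries, the vHPC acute libraries that led to their choice included. Each gene's log2(CPM + 0.5) was centered on its region's mean, and the mean of the 6 served as their profile, whose root mean square (RMS) was 0.499. The members' own RMS difference from it was 0.1253 for *Prox1*, 0.145 for *Tdo2*, 0.173 for *C1ql3*, 0.233 for *Dsp*, 0.244 for *C1ql2* and 0.297 for *Calb1*, while the median over 16125 genes was 0.524. Each member is part of the mean it is set against, which draws it closer, so these values are a description and no comparison with other genes. Libraries share depth and dissection across genes, so likeness here describes these libraries and nothing of function.

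Among the 10 closest other genes were *Npnt* (0.129), *Cemip* (0.139), *Mkx* (0.141), *Slc30a3* (0.171), *Il1r1* (0.182), *Grm2* (0.194), *Ablim3* (0.194), *Fam163b* (0.197) and *Mcm6* (0.197). *Slc30a3* encodes the zinc transporter that fills mossy fiber vesicles, *Grm2* a presynaptic glutamate receptor and *Il1r1* the interleukin-1 receptor. Only *Npnt* was on the granule cell lists, and of the other 12 listed genes, 11 ranked between 12 (*Stxbp6*) and 103 (*Lct*), and *Trhr* was below the minimum mean level of 1 CPM and was not ranked. With a prior of 2 CPM in place of 0.5, 7 of the 10 genes were shared.

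The genes closest to the reversed profile lay farther from it, from *Kcnq5*, a potassium channel, at 0.280, *Peak1* at 0.315 and *Spock1* at 0.317 to *Gm7329* at 0.333, with *Tuba8*, *Hgf*, *Slit2*, *Neto1*, *Trnp1* and *Fstl5* between them. *Slit2* encodes an axon guidance ligand, *Hgf* hepatocyte growth factor and *Neto1* an auxiliary subunit of kainate receptors. Of these 10, 9 were shared with the prior of 2 CPM.

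**Figure D5:**
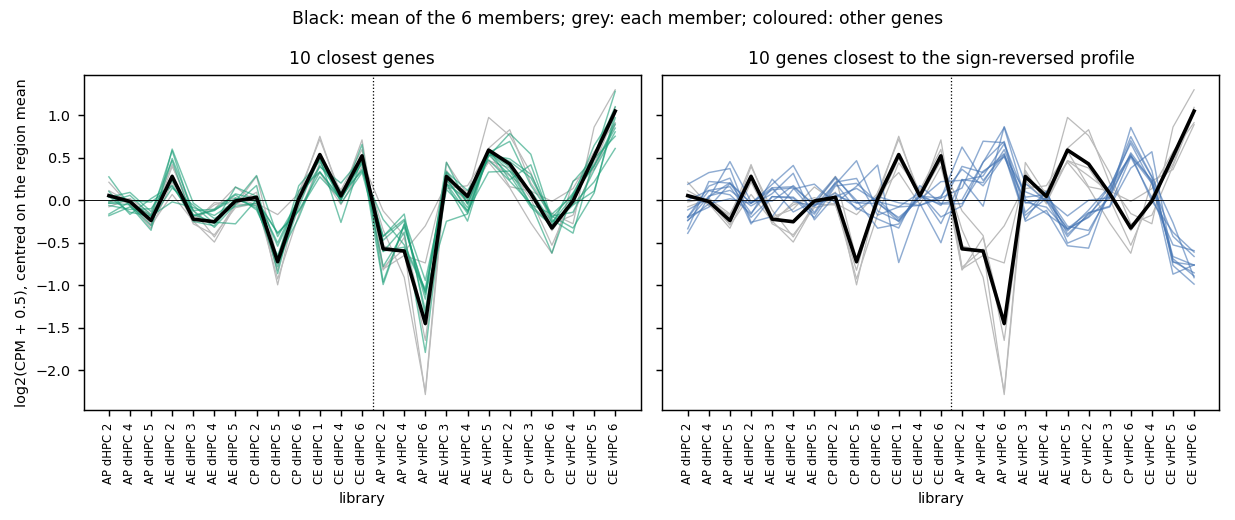
Centered log2(CPM + 0.5) in the 25 hippocampal libraries (dHPC left of the dotted line, vHPC right) for the mean of the 6 members (black), each member (grey) and the 10 closest genes (left, green) or the 10 closest to the sign-reversed profile (right, blue). The members and the close genes dip in CP dHPC 5 and in the 3 acute saline vHPC libraries and peak in CE vHPC 6.

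The annotation holds 15 transcripts of the 6 genes and all were counted in the isoform table, where a read can count for every transcript it fits. The transcripts with the most hippocampal counts were Prox1-202, C1ql2-201, C1ql3-201, Calb1-201, Dsp-201 and Tdo2-201. In dHPC with chronic ethanol they were at log2 fold changes of 0.57 ± 0.18, 0.59 ± 0.25, 0.61 ± 0.21, 0.26 ± 0.12, 0.66 ± 0.20 and 0.67 ± 0.29, close to the values of their genes. All 15 were higher with ethanol in dHPC chronic and in vHPC chronic, none past the edgeR FDR (0% of 131317 and 0.0402% of 106864 transcripts called), and 11 of 15 were higher in dHPC acute (0.0015% of 132914). DESeq2 called Prox1-201 and Prox1-203 in dHPC chronic (0.506% of transcripts called) and Calb1-201 and Calb1-203 in vHPC chronic (0.723%).

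Genes that act with the members were counted from fixed lists. Of 6 genes of the C1ql complex (*C1ql1*, *Adgrb3*, *Nrxn3*, *Grik2*, *Grik4* and *Grik5*), none passed by either tool in dHPC after acute or chronic ethanol, with medians of -0.03 in both. In vHPC after chronic ethanol 5 of 6 were lower, with a median of -0.29 and *C1ql1* at -0.01 ± 0.20, led by the kainate receptor subunits *Grik4* at -0.65 ± 0.23 and *Grik5* at -0.48 ± 0.09 (edgeR FDR 0.199, DESeq2 FDR 0.00284), the last with groups that did not overlap and the former also counted among the CA3 genes. The exception was *Grik2*, also a kainate receptor subunit, at 63.4 to 66.6 CPM with saline and 69.4 to 79.0 with ethanol. It was higher without overlap, as were 7.48% of all genes. *C1ql2* and *C1ql3* were at positive changes in the same comparison.

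Of 8 other desmosome genes 7 were tested in dHPC. *Pkp2*, which encodes the desmosomal plaque protein plakophilin 2, was at 0.44 ± 0.09 with chronic ethanol. Its groups did not overlap, as in the 6.8% of all genes that separated with ethanol higher. *Jup*, which encodes plakoglobin, was at -0.35 ± 0.13 and was lower without overlap, for which the share of all genes is not given here. The list's median was -0.35. Without chronic saline mouse 5 the list's median was -0.34, with 1 gene higher and 6 lower. Of 11 kynurenine pathway genes 10 were tested, with medians of 0.06 in dHPC acute and chronic. *Ido1*, another enzyme of the first step, was at -3.55 ± 1.19 with chronic ethanol (edgeR FDR 0.566), with groups that overlapped, and at -1.78 ± 0.98 without chronic saline mouse 5, the saline library with the most, at 6.31 CPM. *Tdo2* was at 0.68 there. Without that mouse the kynurenine list's median was -0.07.

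Outside the hippocampus, 2 of the genes passed the test after acute ethanol. In CTX, *Calb1* was at 126, 138 and 112 CPM in the saline mice and at 96.8, 97.6 and 104 in the ethanol mice, with no overlap, as in the 8.79% of genes lower without overlap. It fell by 0.33 ± 0.07 on the log2 scale (edgeR FDR 0.0493, from 4.29e-06 to 0.726 over the alternatives), 1 of 6 members against 1.99% of 25905 genes called. The call was lost with all 4 cortical groups in a single fit and in 4 of the 6 fits without 1 mouse. DESeq2 called 1 member in CTX after acute ethanol, as lower, among 573 genes called lower of the 25905. In CTX after chronic ethanol *Calb1* was at -0.32 ± 0.20 (edgeR FDR 0.576), and edgeR called no gene of the region (0% of 25644), while DESeq2 called 0.608% of them and no member.

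In DS, *C1ql3* was at 46.4, 18.3 and 29.8 CPM in the acute saline mice and at 3.38, 7.24 and 3.15 in the ethanol mice, without overlap, as in the 10.9% of genes lower without overlap. It fell by 2.84 ± 0.34 on the log2 scale (edgeR FDR 0.000479, up to 0.295 with all 4 DS groups in a single fit). *Calb1* rose, from 145, 214 and 179 CPM to 273, 197 and 268, by 0.44 ± 0.13 (edgeR FDR 0.0989, from 7.53e-08 to 1.00 over the alternatives), with groups that overlapped, so that 2 of the 5 members tested passed against 5.15% of 20495 genes. DESeq2 called *C1ql3* alone among the members, and 6.4% of all genes.

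A list of 6 genes of cortical and hippocampal excitatory neurons (*Slc17a7*, *Neurod2*, *Neurod6*, *Tbr1* and *Emx1* among them), added after the *C1ql3* values were seen, moved with it. The list summed to 371, 403 and 480.2 CPM in the acute saline DS libraries and to 24.6, 100.4 and 15.4 in the acute ethanol ones, mostly from *Slc17a7*, with 1 gene at 0 in 1 ethanol library, and all 6 genes passed the edgeR FDR as lower, with a median log2 fold change of -3.30. *C1ql3* itself had a cortical median of 80.0 CPM. The part of cortical tissue in the DS result was not tested.

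*C1ql3* was also lower with ethanol in the other striatal comparisons, by values that did not pass the edgeR FDR, of which DESeq2 called that in DS chronic, at -1.87 ± 0.54 in DS chronic (edgeR FDR 0.969, DESeq2 FDR 0.0700, with 0% and 0.558% of genes called, the latter as lower), -1.63 ± 0.43 in VS acute (edgeR FDR 0.412, 0.0399% of genes called) and -1.35 ± 0.55 in VS chronic (edgeR FDR 0.465). The excitatory neuron list had medians of -2.46, -3.02 and -3.62 there. The DS chronic comparison holds a saline library, mouse 2, with the lowest total of all 62 (8149628 counts) and a scaling factor of 1.48, the highest of all.

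In VS after chronic ethanol *Prox1* was at 18.7, 21.9 and 18.2 CPM with saline and at 10.5, 10.8 and 8.96 with ethanol, without overlap, a log2 fold change of -0.97 ± 0.14 (edgeR FDR 0.201, DESeq2 FDR 9.98e-05, with 1.01% of genes called lower by DESeq2). *Dsp* was at 1.22, 2.24 and 4.79 CPM and at 0.281, 0.394 and 0.130, on 58 counts or fewer per library. No member was called there by edgeR (0% of 20331 genes), and 2 of 6 were lower without overlap, against 7.79% of genes. The excitatory neuron list had its median of -3.62 in the same libraries, and its part in the *Prox1* and *Dsp* values was not tested.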

How the data were processed

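Per the study's methods, the authors removed adapters with cutadapt 5.0, mapped reads to GRCm39 with STAR 2.7.10a and ran featureCounts 2.0.6 per gene and per transcript. The deposited values are these raw counts, with no normalization. A reverse-stranded setting is stated for all libraries, although the CTX and dHPC kit is not directional. The members and gene lists were chosen with earlier results of these data known, and the list of excitatory neuron genes was added after the *C1ql3* values in DS were seen.

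EdgeR 4.0.16 (quasi-likelihood F test, TMM, R 4.3.3) was fitted to the groups of each comparison. Genes entered when 2 or more samples of either group held 5 or more counts, and FDRs were Benjamini-Hochberg adjusted over all of them (threshold 0.1). DESeq2 1.42.0 was the main alternative. The others were DESeq2 size factors, no filter, a minimum of 10 counts, a fit over all 4 groups of the region, and leaving out each library. DESeq2 on transcripts, the medians under the alternatives and the gene lists without a library that stood apart were added after the data were seen. The text names the 6 members, genes of the lists, and the 10 genes closest to the members' profile or its reverse among genes with a mean of at least 1 CPM in both hippocampal regions. Libraries of a group are separate mice. Levels and figures were made with Python 3.11.15, pandas 2.3.3 and matplotlib 3.10.9. The edgeR estimate of a large planted change was checked on simulated counts of chronic dHPC and chronic vHPC. How often smaller changes would be called is not reported here. Some genes of the lists and of the closest genes are not reported here by name.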

Additional observations from a re-analysis of the deposited data

How the results depend on the processing

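Values stayed within 1.5 times or 1 SD of those reported, in 228 summary values, and 22 moved. The SD is that between mice, 0.36 for the members' median in dHPC chronic and 0.46 in vHPC chronic. A fall of the vHPC chronic median from 0.52 to 0.22 thus counts as within it. Medians of the contrast that led to the choice of the genes are among these values. The count is therefore no measure of how firm a change is. Of the values of single genes, 12 lost their call and 15 gained one. The vHPC acute contrast and both contrasts that reuse its libraries were given no calls. With DESeq2, called members were 1 each in dHPC chronic, vHPC chronic, CTX acute, DS acute, DS chronic and VS chronic. Called transcripts were 2 each in dHPC chronic and vHPC chronic. With no filter on low counts, called members were 3 in vHPC chronic, 1 in VS acute and 3 in VS chronic. The share of all genes called without the filter is not given here, so nothing about the members is drawn from these counts. With all 4 groups of a region in a single fit, 0 members were called in CTX acute and 0 in DS acute. Leaving out 1 library gave 0 to 1 called members in CTX acute, 1 to 2 in DS acute and 0 to 2 in VS chronic. The cause of these shifts was not tested. A replicate block by mouse number gave 0 called members in dHPC acute, CTX chronic and dHPC saline and 2 in CTX acute (*C1ql3*, edgeR FDR 0.0588, from there to 0.923 over the alternatives, and *Calb1*), but the numbers did not pair the samples, with correlations of deviations of -0.26 to 0.13. The block was fitted in these 4 comparisons, in CTX chronic and dHPC saline after the data were seen. Levels of *Dsp*, *Tdo2* and *C1ql2* outside the hippocampus are limited by depth.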
